A study of Saccharomyces cerevisiae with 5 samples.

Results

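The genes of pyrimidine synthesis in budding yeast (Saccharomyces cerevisiae) were followed as a group of 10 among the 6567 features of the expression table: URA2, URA4, URA1, URA5, URA10, URA6, URA7, URA8, FUR1 and PPR1. The members were fixed by their systematic IDs. The group was chosen by the FPKM of URA1, which was already known from these data to part the mutants, so its values, and those of the other members in the same strains, are given as a description. RNA levels were measured by poly(A) RNA sequencing in 4 mutants and their parent. The mutants were ies6d (BY4741 ies6::LEU2, strain WYY0195), arp5d (BY4741 arp5::LEU2, WYY0194), ino80d (BY4741 ino80::LEU2, WYY0193) and arp8d (BY4741 arp8::LEU2, WYY0196), and WT was BY4741. By its label, BY4741 is of mating type a and carries mutations in HIS3, LEU2, MET15 and URA3. By the labels, all 5 strains thus share the ura3 background, and the 4 mutants share the LEU2 marker, which WT lacks. The labels do not account for the RNA of MET17 (the same gene as MET15) and of LYS2, which differs between the strains as given below. Asynchronous cultures were grown at 30 degrees C in rich medium to mid-log phase. Each strain had 1 FPKM value per gene (fragments per kilobase of feature, scaled to the mapped fragments) that stands for 2 biological replicates. No value therefore has a replicate error, no difference could be tested, and "at least 1.5-fold" below is a rule of size on FPKM + 1 and not a test. The depth of the libraries is unknown.

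Pyrimidine nucleotides are built on a ring that is made first and joined to a sugar phosphate later. Ura2 makes carbamoyl phosphate and carbamoyl aspartate, Ura4 closes the ring to dihydroorotate, Ura1 oxidises it to orotate, Ura5 and its minor isozyme Ura10 attach the sugar phosphate, and Ura3 releases carbon dioxide to give UMP. Ura6 phosphorylates UMP, Ura7 and Ura8 turn UTP into CTP, and Fur1 makes UMP directly from uracil. In a ura3 strain the new synthesis of UMP is blocked and the cell depends on uracil or uridine from the medium. Ppr1 is a zinc cluster activator known to bind the promoters of URA1, URA3 and URA4 and to be switched on by the intermediates dihydroorotate and orotate. URA10 is also counted among the genes that Ppr1 activates. INO80 is a complex that moves nucleosomes. Its motor subunit is Ino80, Arp5 and Ies6 form a module on the motor, and Arp8 is part of another module.

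The promoters of URA1 and URA4 are shown because these known targets of Ppr1 had the widest gaps between pairs of mutants of the 10 members. The window was 300 bases before the start codon on sacCer3, read from the RefSeq R64 genome, which is the same assembly. The Ppr1 motif was searched as CGG, any 6 bases and CCG, which reads alike on both strands. URA1 held it 212 to 201 and again 181 to 170 bases before the start codon, and URA4 held it 130 to 119 bases before. No other member had these letters in its window, URA10 included. Over all 6001 promoters of protein-coding genes with such a window, 77 (1.28%) held it. The windows of URA1 (chrXI:24915-25214, plus strand) and URA4 (chrXII:963485-963784, plus strand) are written 5′ to 3′ with the CGG and CCG in capitals.
URA1: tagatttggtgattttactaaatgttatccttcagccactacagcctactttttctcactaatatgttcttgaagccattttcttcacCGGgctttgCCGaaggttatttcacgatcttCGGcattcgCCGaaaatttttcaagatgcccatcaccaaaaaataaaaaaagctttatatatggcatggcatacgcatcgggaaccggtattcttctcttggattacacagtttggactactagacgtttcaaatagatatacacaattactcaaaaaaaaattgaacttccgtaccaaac
URA4: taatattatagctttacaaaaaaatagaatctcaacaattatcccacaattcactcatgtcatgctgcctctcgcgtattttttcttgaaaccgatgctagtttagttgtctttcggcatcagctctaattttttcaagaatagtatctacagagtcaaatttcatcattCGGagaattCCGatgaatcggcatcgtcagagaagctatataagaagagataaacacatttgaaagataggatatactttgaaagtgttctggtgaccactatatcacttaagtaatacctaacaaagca

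URA1 (YKL216W, chromosome XI, 25215 to 26159), the dihydroorotate dehydrogenase, had the highest FPKM, a level per length, of the 10 genes in every strain. It lay at 1690.4 FPKM in ies6d, 1503 in arp5d, 819.7 in ino80d, 791 in arp8d and 1661 in WT. The mutants formed pairs that did not overlap, with ies6d at 1.02 and arp5d at 0.905 times the WT level, and ino80d at 0.494 and arp8d at 0.477 times. The log2 ratio to WT was 0.03 in ies6d, -0.14 in arp5d, -1.02 in ino80d and -1.07 in arp8d. Even at its lower level URA1 stayed at or above the percentile 95.2 of the 5409 annotated ORFs of at least 300 bp, against 96.6 in WT. Within the pairs, ies6d over arp5d stood at a log2 ratio of 0.17 and ino80d over arp8d at 0.05. With strains rescaled to an equal FPKM sum, these ratios were -0.02 and -0.08, so the order within the pairs is unsure. In a culture, fewer cells that express a gene and less RNA per cell cannot be told apart. When strains were rescaled to the summed FPKM of the ORFs of at least 300 bp, the log2 ratio to WT in ino80d was -0.55, just under 1.5-fold, while the median of all features moved up to 0.44.

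URA4 (YLR420W, chromosome XII, 963785 to 964879), the dihydroorotase that acts just before Ura1, showed the same split into pairs with a smaller gap. Within the upper pair, without rescaling, arp5d stood above ies6d, the reverse of URA1. It lay at 376 FPKM in ies6d, 418 in arp5d, 283 in ino80d, 258 in arp8d and 456 in WT. Its log2 ratio to WT was -0.28 in ies6d, -0.12 in arp5d, -0.68 in ino80d and -0.82 in arp8d. The level in each of ies6d and arp5d stood above both ino80d and arp8d, and without rescaling all 4 mutants lay below WT. With each strain rescaled to the same sum of FPKM, the log2 ratio became -0.52 in ino80d and -0.53 in arp8d, under the 1.5-fold mark. It was then -0.41 in ies6d, close to the lower pair, and -0.06 in arp5d. Rescaled to the sum of the ORFs of at least 300 bp, it was -0.14 in ies6d, -0.22 in ino80d and -0.48 in arp8d. In arp5d it was then above WT, at 0.18. The size of the split and the place below WT thus depended on scaling.

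URA2 (YJL130C, chromosome X, 165723 to 172367), which encodes the enzyme of the entry steps and is held back by UTP, hardly varied. It lay at 62.5 FPKM in ies6d, 57.1 in arp5d, 60.02 in ino80d, 59.2 in arp8d and 61.7 in WT, and the highest strain was 1.09 times the lowest. The largest of its log2 ratios to WT was -0.11, in arp5d. The genes of the entry step and of the next steps thus had unlike patterns over the strains.

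PPR1 (YLR014C, chromosome XII, 172268 to 174982), the gene of the activator, had the lowest level of the 10 and did not follow URA1. It lay at 14.0 FPKM in ies6d, 16.2 in arp5d, 18.4 in ino80d, 19.4 in arp8d and 18.8 in WT. Without rescaling, the order of the mutants was the opposite of that in URA1, with log2 ratios to WT of -0.41, -0.20, -0.03 and 0.04 in the same order of strains. None of these reached 1.5-fold, and the level of an activator's RNA says nothing of its activity. With strains rescaled to an equal FPKM sum, the small gaps within the URA1 pairs changed sign. The opposite order then held between the pairs only.

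**Figure D1:**
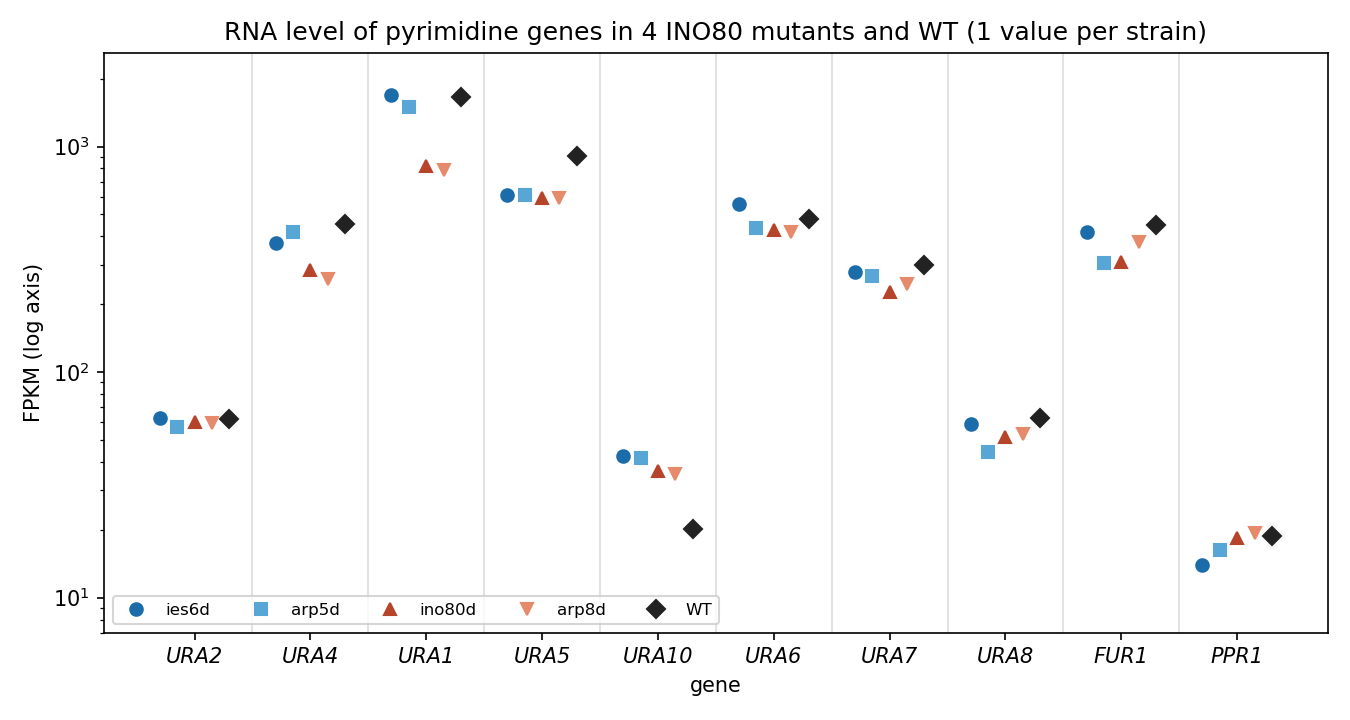
FPKM on a log axis of the 10 genes in ies6d, arp5d, ino80d, arp8d and WT, 1 point per strain with no error bar because each strain has 1 value. URA1 and URA4 stand lower in ino80d and arp8d than in the other 3 strains, URA5 is lower and URA10 higher in all 4 mutants than in WT, and URA2 stays between 57.1 and 62.5 FPKM.

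The genes of the phosphoribosyl step lay on opposite sides of WT in all 4 mutants. URA5 (YML106W, chromosome XIII, 56773 to 57453), the main orotate phosphoribosyltransferase, lay at 612 FPKM in ies6d, 611 in arp5d, 589 in ino80d, 590.02 in arp8d and 911 in WT. The mutants lay within a narrow band and all below WT, with log2 ratios of -0.57, -0.58, -0.63 and -0.63. These values sit on the 1.5-fold mark of 0.58 on the log2 scale, so that ino80d and arp8d passed it and ies6d and arp5d did not, which is not a difference between the mutants. With strains rescaled to an equal FPKM sum they were -0.70, -0.51, -0.47 and -0.34, and of these ies6d alone passed.

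URA10 (YMR271C, chromosome XIII, 806865 to 807548), the minor isozyme, lay at 42.4 FPKM in ies6d, 41.4 in arp5d, 36.5 in ino80d, 35.2 in arp8d and 20.3 in WT. All 4 mutants were above WT, with log2 ratios of 1.03, 1.00, 0.82 and 0.77, and they did not overlap with it. URA10 was the 1 member at least 1.5-fold higher in all 4 mutants. Of the 6192 features kept for comparison (mean of at least 5 FPKM over the strains), 7.98% were that much higher in all 4, and 4.78% were that much lower, among which was no member. These 4 comparisons share the 1 WT value. URA10 thus supplied 6.47% of the summed FPKM of the pair in ies6d, 6.35% in arp5d, 5.83% in ino80d and 5.63% in arp8d, against 2.17% in WT. The sum itself was lower in the mutants, between 625 and 655 FPKM, against 932 FPKM in WT.

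The proteins of this pair, 226 residues for Ura5 and 227 for Ura10, are 72.5% identical, and their coding sequences 70.4%. No member had another gene at 90% identity or more over 50% of its length, nor did any overlap another annotated gene. The URA10 window (chrXIII:807549-807848, minus strand) was the only one of the 10 with TGACTCA, the motif of the amino acid regulator Gcn4, or with CACGTG, the motif of Pho4 and Cbf1, each searched on both strands. TGACTCA was in 2.62% of all promoters and CACGTG in 3.57%. The window is shown because URA10 was the member that was higher, with both motifs in capitals.
URA10: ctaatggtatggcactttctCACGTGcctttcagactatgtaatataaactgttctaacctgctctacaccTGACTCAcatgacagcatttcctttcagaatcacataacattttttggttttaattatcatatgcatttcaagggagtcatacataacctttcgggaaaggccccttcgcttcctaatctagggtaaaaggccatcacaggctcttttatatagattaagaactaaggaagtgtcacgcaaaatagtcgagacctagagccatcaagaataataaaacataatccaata

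**Figure D2:**
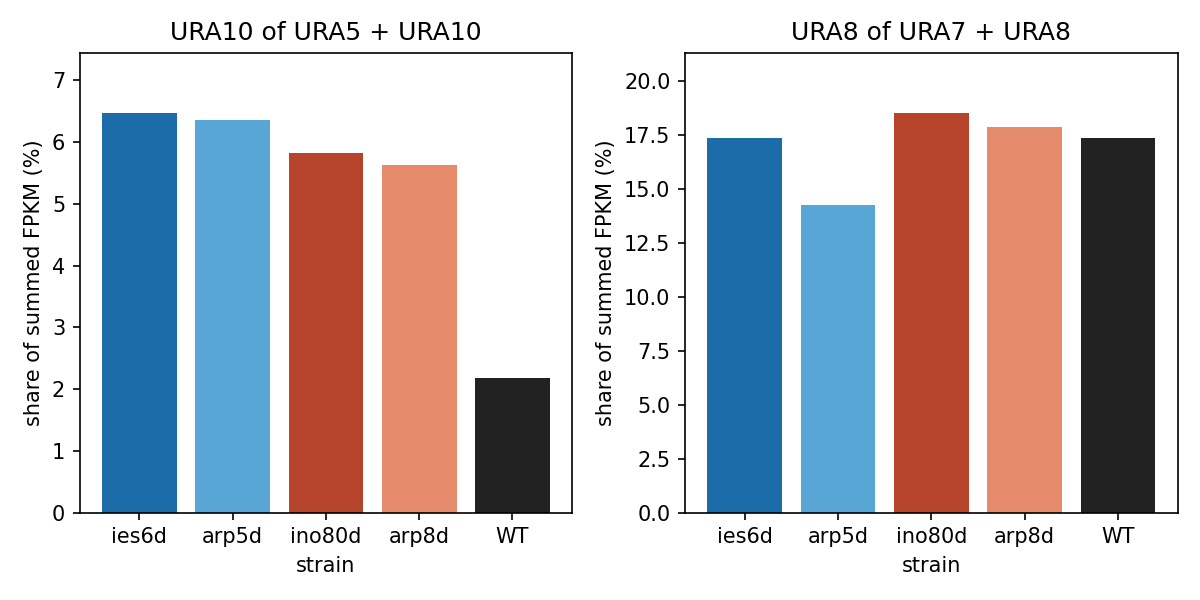
Share of the summed FPKM held by URA10 in the URA5 and URA10 pair (left) and by URA8 in the URA7 and URA8 pair (right), 1 bar per strain. The URA10 share is 5.63% to 6.47% in the mutants and 2.17% in WT, whereas the URA8 share is 14.3% to 18.5% in the mutants and 17.4% in WT.

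Without rescaling, the CTP synthase genes were lower in the mutants by small amounts. URA7 (YBL039C, chromosome II, 143989 to 145728), the main gene, lay at 279 FPKM in ies6d, 267 in arp5d, 227 in ino80d, 245 in arp8d and 299 in WT. URA7 kept the order of pairs seen in URA1, with log2 ratios to WT of -0.10, -0.16, -0.40 and -0.29, none of them at 1.5-fold. This order is common, and URA5, URA10 and URA6 also had both ies6d and arp5d above both ino80d and arp8d. In these 4 genes the order depended on scaling. With strains rescaled to an equal FPKM sum, the ratios were -0.23, -0.10, -0.24 and -0.004 for URA7, in the same order of strains. They were 0.83, 0.98, 0.90 and 0.97 for URA10, and 0.09, -0.07, -0.003 and 0.09 for URA6. URA5 then had the pairs reversed. URA8 (YJR103W, chromosome X, 620754 to 622490), its partner with 77.6% identical protein, lay at 58.6 FPKM in ies6d, 44.4 in arp5d, 51.5 in ino80d, 53.2 in arp8d and 62.9 in WT. It was lowest in arp5d, at a log2 ratio of -0.49, and so did not part the mutants in the URA1 way. The direction against WT depended on scaling for both genes. Rescaled to the summed FPKM of the ORFs of at least 300 bp, URA7 was at 0.04, 0.13, 0.07 and 0.05. URA8 was then at 0.04, -0.20, 0.18 and 0.09, in the same order of strains. The share of URA8 in the pair was 17.3% in ies6d, 14.3% in arp5d, 18.5% in ino80d and 17.9% in arp8d, against 17.4% in WT.

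URA6 (YKL024C, chromosome XI, 392526 to 393140), the UMP kinase, lay at 558 FPKM in ies6d, 435 in arp5d, 427 in ino80d, 417 in arp8d and 477 in WT. Only ies6d was above WT, at a log2 ratio of 0.23, and the other 3 lay between -0.13 and -0.19. The median gene of chromosome XI stood at 0.11 on the same scale in ies6d, -0.01 in arp5d, 0.00 in ino80d and -0.02 in arp8d, and its part in the value of URA6 was not tested. FUR1 (YHR128W, chromosome VIII, 362115 to 362765), the salvage enzyme on which ura3 cells rely for uracil, lay at 418 FPKM in ies6d, 305 in arp5d, 308 in ino80d, 379 in arp8d and 451 in WT. The low strains here were arp5d and ino80d, with log2 ratios of -0.56 and -0.55, against -0.11 in ies6d and -0.25 in arp8d. FUR1 therefore grouped the mutants another way than URA1 did. Transcripts of LYS2 were near 0 in the same arp5d and ino80d (0.0390 and 0.0138 FPKM) and at 25.01 FPKM in ies6d, 32.3 in arp8d and 36.9 in WT, and their part in the value of FUR1 was not tested.

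**Figure D3:**
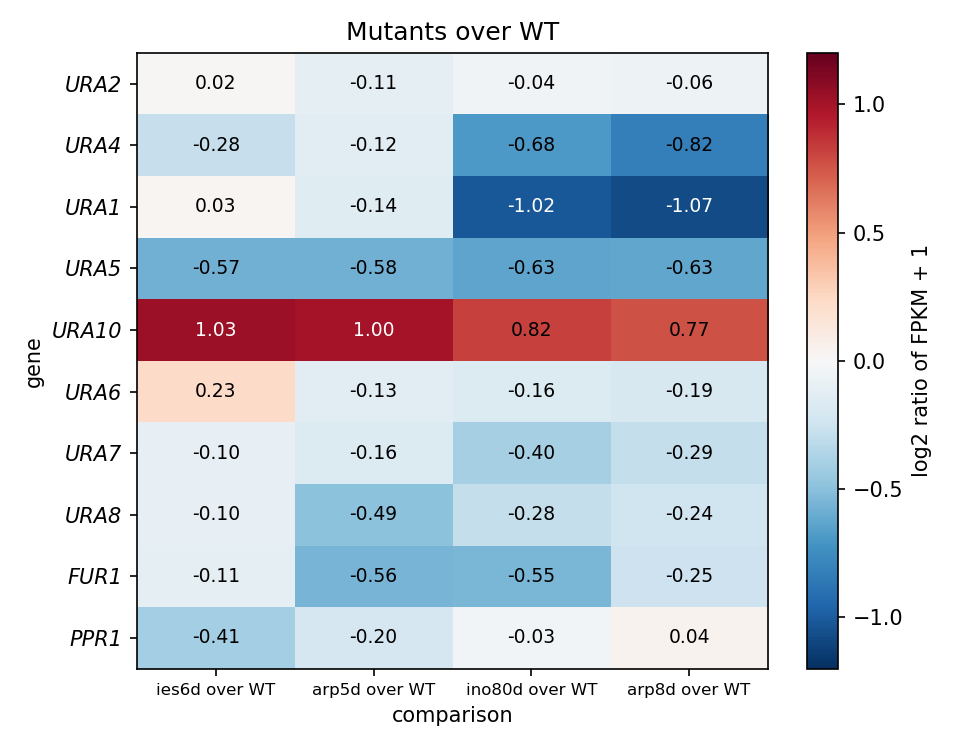
Log2 ratio of FPKM + 1 to WT for the 10 genes (rows) in ies6d, arp5d, ino80d and arp8d (columns), with blue for lower and red for higher than WT. URA1 holds the lowest values, -1.02 in ino80d and -1.07 in arp8d, and URA10 the highest, 1.03 in ies6d.

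Counted together, 1 of the 10 genes was at least 1.5-fold higher in each mutant, and that gene was URA10. The share of all kept features that much higher was 14.4% in ies6d, 13.3% in arp5d, 15.1% in ino80d and 11.0% in arp8d. None of the 10 was at least 1.5-fold lower in ies6d or arp5d, where 10.4% and 10.9% of features were. In ino80d and in arp8d 3 of the 10 were, URA4, URA1 and URA5, where 13.2% and 8.33% of features were. URA1, by which the group was chosen, is in both counts and in the medians below, so these are no independent result. With strains rescaled to an equal FPKM sum, URA4 and URA5 fell under the mark in both strains and URA1 alone was left. The median log2 ratio over the 10 members was -0.10 in ies6d, -0.15 in arp5d, -0.34 in ino80d and -0.24 in arp8d, beside medians of all kept features of -0.02, -0.02, -0.01 and -0.02. All 10 members passed the filter on low values.

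Set directly against each other, without WT, ies6d and arp5d held more URA1 RNA than ino80d and arp8d in each of the 4 cross pairs. The ratio was 2.06 for ies6d over ino80d, 2.14 for ies6d over arp8d, 1.83 for arp5d over ino80d and 1.90 for arp5d over arp8d. Of all 6192 kept features, 10 (0.161%) were at least 1.5-fold higher in each of the 4 cross pairs and 4 (0.0646%) at least 1.5-fold lower. URA1 was the member among them, and because it was chosen for this gap nothing is read from its place. Among the 5409 annotated ORFs of at least 300 bp, 3 were that much higher, the other two being YIR042C and HSP30, the gene of a membrane heat shock protein. URA4 came at rank 11 of 5409 by its smallest cross pair, with ratios between 1.33 and 1.62, and passed 1.5-fold in arp5d over arp8d alone. By the same measure URA10 came at rank 156, URA7 at 296, URA5 at 662 and URA6 at 835. The smallest cross pair of URA6 was still above 0, at a log2 ratio of 0.03. At least 835 of the 5409 ORFs thus had this order without rescaling. The order alone is therefore not particular to the members. Within the pairs of mutants, no member was 1.5-fold apart between ies6d and arp5d or between ino80d and arp8d, where 3.65% and 7.54% of features were.

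**Figure D4:**
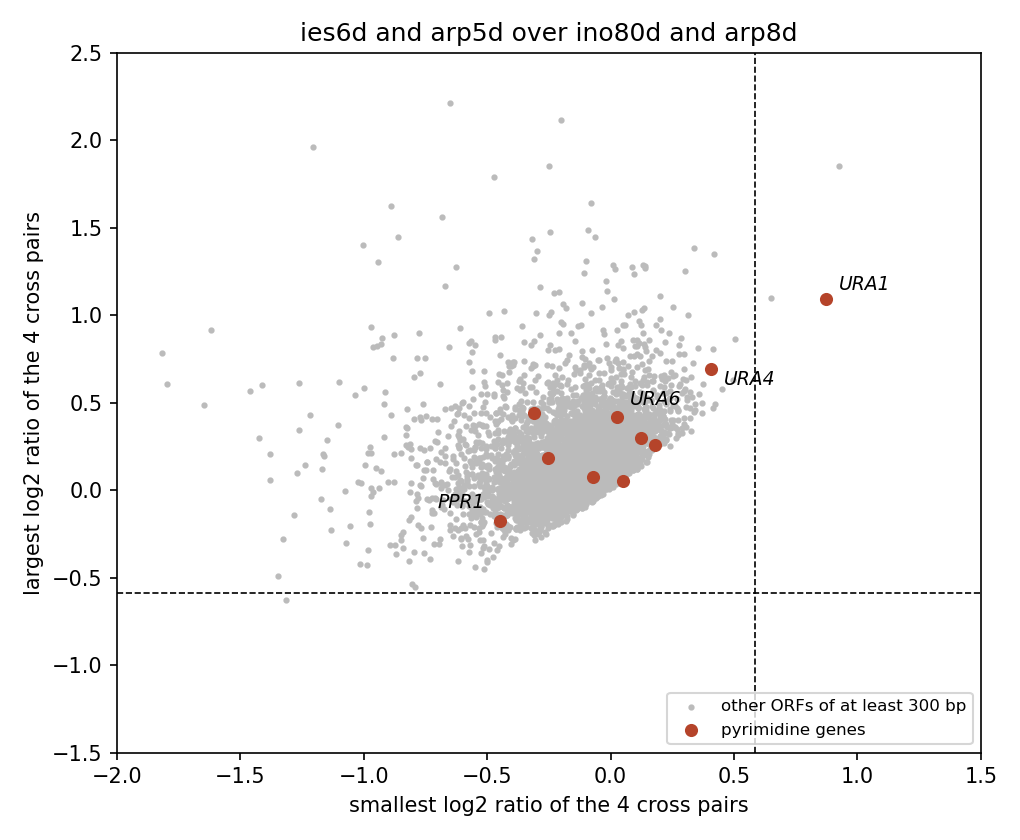
Smallest (horizontal axis) against largest (vertical axis) log2 ratio over the 4 cross pairs of ies6d and arp5d over ino80d and arp8d, for 5409 ORFs of at least 300 bp in grey and the 10 pyrimidine genes in red, with 10 ORFs outside the axes. Dashed lines mark 1.5-fold. URA1 lies right of the vertical line at 0.87 and URA4 left of it at 0.41.

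The parting of the mutants at URA1 coincided with a difference at MET17, the gene that is mutated in BY4741 under the name MET15. MET17 lay at 0.571 FPKM in ies6d, 0.2005 in arp5d and 0.482 in WT, but at 807 FPKM in ino80d and 564 in arp8d. MET17 RNA was thus high in the strains in which URA1 RNA was low, so the missing subunit and the state of MET17 cannot be told apart for URA1 and URA4. The deleted genes were close to 0 in their own strains, at most 0.211 FPKM, and LEU2 lay between 81.3 and 125 FPKM in the mutants, against 0.0619 FPKM in WT.

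The genes next to URA1 had smaller gaps between the mutants, and in none of them did all 4 cross pairs reach 1.5-fold. Since 0.161% of all kept features were that much higher in all 4 and 0.0646% lower, that count is uninformative. The 3 genes on each side had a median log2 ratio to WT of 0.03 in ies6d, -0.08 in arp5d, -0.28 in ino80d and -0.08 in arp8d. JEN1, a lactate transporter gene upstream of URA1, lay at 8.56 FPKM in ies6d, 8.40 in arp5d, 7.52 in ino80d, 8.97 in arp8d and 8.85 in WT. OXP1, the gene of 5-oxoprolinase downstream of URA1, lay at 20.03 FPKM in ies6d, 21.6 in arp5d, 20.1 in ino80d, 23.3 in arp8d and 16.4 in WT. Both were at like levels in the 4 mutants. The log2 ratios to WT of YRA2 were 0.07, -0.10, -0.36 and -0.17, those of DOA1 0.12, -0.01, 0.06 and 0.01, and those of SRY1 0.00, -0.17, -0.44 and -0.22, in the order ies6d, arp5d, ino80d and arp8d. COS9, of a subtelomeric family with similar members, was lower in all 4, at -0.98, -0.98, -1.41 and -1.19 in the same order. In COS9, SRY1 and YRA2 both ino80d and arp8d stood below both ies6d and arp5d, as in URA1 but with smaller gaps. Less the median of the 3 genes on each side, the log2 ratio of URA1 was -0.01 in ies6d, -0.06 in arp5d, -0.73 in ino80d and -0.99 in arp8d.

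**Figure D5:**
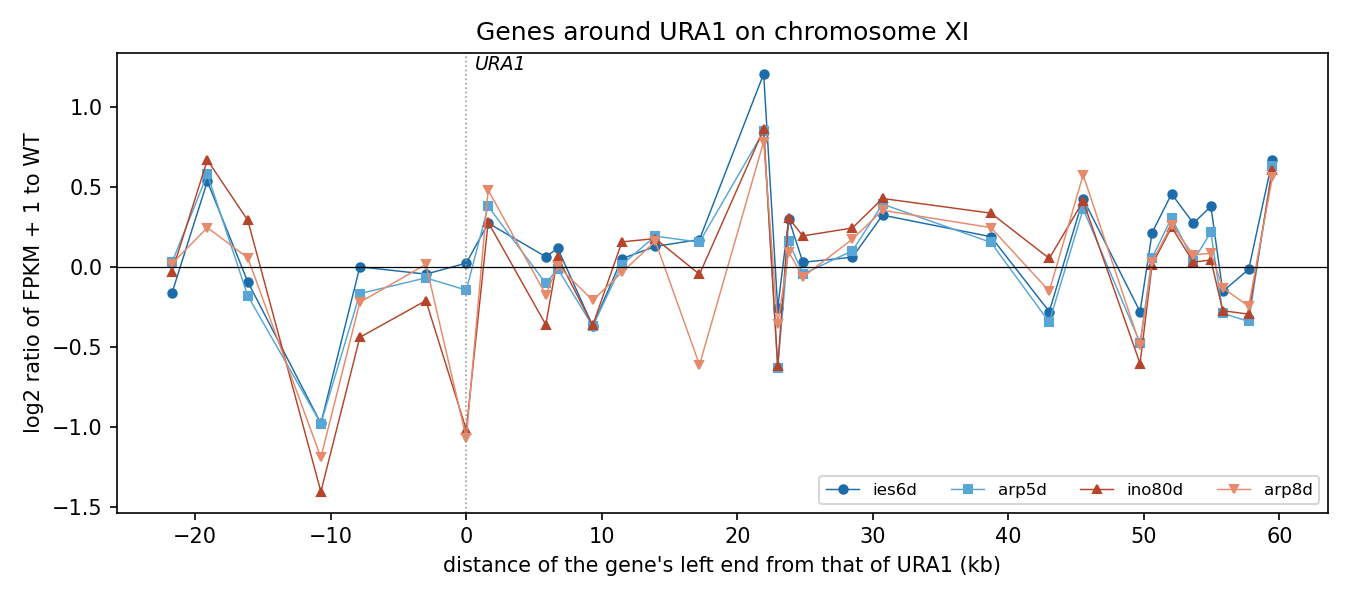
Log2 ratio of FPKM + 1 to WT of the 31 kept ORFs of at least 300 bp within 60 kb of URA1 on chromosome XI, against the distance of their left ends from that of URA1, 1 line per mutant. At 0 kb the lines of ies6d (0.03) and arp5d (-0.14) separate from those of ino80d (-1.02) and arp8d (-1.07), while at JEN1 and OXP1 beside it the 4 lines lie close together. At SRY1, YRA2 and COS9 the lines of ino80d and arp8d also lie below the other pair, with smaller gaps.

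Around URA6, the neighbours TCD2, PAN3, SKA1 and CDC16 lay within 1.5-fold of WT in all 4 mutants. GPX1, a glutathione peroxidase gene, was higher, with log2 ratios of 2.63 in ies6d, 2.06 in arp5d, 1.75 in ino80d and 1.63 in arp8d, and MIN9 lower, with -0.14, -0.57, -0.64 and -0.37. The median over the 3 genes on each side was 0.07, 0.02, -0.12 and -0.03.

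The profile most like that of URA1 over the 5 strains was that of URA4. Likeness was the root mean square distance between log2(FPKM + 1) values after each gene was centred on its own mean, over 5 strains. URA4 was at a distance of 0.223, below every one of the 5399 other ORFs of at least 300 bp that are not members. The other members lay between 0.37 (URA7) and 0.68 (URA10). The nearest genes outside the group were HPT1, the hypoxanthine and guanine salvage enzyme, at 0.225, RIB4, of riboflavin synthesis, at 0.24, and RPI1, RPL34A and FUI1 at 0.25 each. URA4 and HPT1 were thus almost equally near. The group was chosen by the values of URA1 and each strain has 1 value, so nothing is read from the place of URA4. HPT1 lay at 1081 FPKM in ies6d, 959.7 in arp5d, 709 in ino80d, 740.5 in arp8d and 1315 in WT. HPT1 was lower than in WT in every mutant, whereas URA1 in ies6d was near WT, at a log2 ratio of 0.03. That URA1 ratio was -0.11 with strains rescaled to an equal FPKM sum and -0.08 less the chromosome median. The gap between the pairs was smaller in HPT1 than in URA1. FUI1 (YBL042C), the uridine transporter, lay at 90.002 FPKM in ies6d, 98.7 in arp5d, 62.7 in ino80d, 71.6 in arp8d and 121 in WT. RPL34A encodes a ribosomal protein with a closely similar partner gene, and its value is uncertain.

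Among the 72 kept genes with the Ppr1 motif that are not members, none was at least 1.5-fold higher or lower in each cross pair, but only 5 of all 5633 kept genes with a window were higher and 3 lower, so that a count of 0 is uninformative. The median of the 72 log2 ratios was 0.07 for ies6d over ino80d, 0.06 for ies6d over arp8d, 0.06 for arp5d over ino80d and 0.02 for arp5d over arp8d, beside 0.00, 0.01, 0.00 and 0.00 over all 5633. No test was made of this difference. The letters alone are a description of the window and not a measure of binding.

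For genes of pyrimidine transport, salvage and thymidylate synthesis the median log2 ratio to WT was below 0 in all 4 mutants. Of a list of 16 genes 15 were measured and kept, and URA3 was not analysed here. At least 1.5-fold lower were 4 in ies6d, 5 in arp5d, 6 in ino80d and 3 in arp8d, and at least 1.5-fold higher was 1 in ies6d, YNK1, the nucleoside diphosphate kinase, and none in the other 3. Of all kept features, 10.4%, 10.9%, 13.2% and 8.33% were that much lower and 14.4%, 13.3%, 15.1% and 11.0% that much higher, in the same order. The median over the 15 genes was -0.25, -0.29, -0.33 and -0.31, beside -0.02, -0.02, -0.01 and -0.02 over all kept features. FCY2, the permease for purines and cytosine, lay at 229.8 FPKM in ies6d, 252 in arp5d, 249 in ino80d, 371 in arp8d and 641 in WT. It was the lowest of the list against WT in ies6d, arp5d and ino80d, and least so in arp8d.

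SDT1, a pyrimidine nucleotidase gene, was the other gene lower by 1.5-fold in all 4 mutants, at 59.6 FPKM in ies6d, 64.9 in arp5d, 51.8 in ino80d, 57.9 in arp8d and 103 in WT. URK1, the uridine and cytidine kinase, lay at 38.3 FPKM in ies6d, 39.6 in arp5d, 41.1 in ino80d, 59.4 in arp8d and 80.7 in WT. FCY21, a relative of FCY2, lay at 17.9 FPKM in ies6d, 18.9 in arp5d, 16.8 in ino80d, 26.7 in arp8d and 33.3 in WT. In FCY2, URK1 and FCY21 arp8d stood between the other 3 mutants and WT. In no gene of the list did all 4 cross pairs reach 1.5-fold. Of all kept features 0.161% were that much higher in all 4 and 0.0646% lower, so this count is uninformative. FUR4, the uracil permease, lay at 24.7 FPKM in ies6d, 26.0 in arp5d, 20.6 in ino80d, 19.7 in arp8d and 22.3 in WT, so that all 4 mutants were within 1.5-fold of WT. It was looked at after its values were seen, since ura3 cells take up uracil through it.

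A further list held genes that supply the pathway with substrates. Of 10 genes for carbamoyl phosphate, aspartate, glutamine and phosphoribosyl pyrophosphate, 3 were at least 1.5-fold lower in ies6d, 3 in arp5d, 3 in ino80d and 2 in arp8d, and none was higher. The shares of all kept features that much lower were 10.4%, 10.9%, 13.2% and 8.33%, and of those that much higher 14.4%, 13.3%, 15.1% and 11.0%. The median log2 ratio of the list was -0.13, -0.13, -0.22 and -0.28, beside -0.02, -0.02, -0.01 and -0.02 over all kept features. PRS2, of phosphoribosyl pyrophosphate synthesis, was lower in all 4 mutants, at 85.3 FPKM in ies6d, 82.8 in arp5d, 69.8 in ino80d, 76.05 in arp8d and 146 in WT. GLN1, the glutamine synthetase, lay at 628 FPKM in ies6d, 779 in arp5d, 587 in ino80d, 1038 in arp8d and 1348 in WT. CPA1, the small subunit of the arginine pathway's carbamoyl phosphate synthetase, lay at 103 FPKM in ies6d, 109.9 in arp5d, 107 in ino80d, 169 in arp8d and 201 in WT. Both were least lowered in arp8d. AAT2, the cytosolic aspartate aminotransferase, stayed within 1.5-fold of WT, with log2 ratios between -0.04 and -0.40.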

How the data were processed

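Poly(A) RNA of 5 yeast strains was sequenced by the authors on an Illumina HiSeq instrument after TruSeq RNA v2 preparation, per the labels' protocols. This kit does not mark strand. The deposited values are FPKM, 1 per feature and strain for 2 biological replicates. Per the submitters' processing notes, the authors used TopHat2 and Cuffdiff on build sacCer3; versions, annotation and library size setting are not given in the sources used here.

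Log2 ratios of FPKM + 1 were computed between strains with Python 3.11.15, pandas 2.3.3 and numpy 2.4.6, without rescaling, over 6192 features with a mean of at least 5 FPKM. Of 6567 features, 5888 matched RefSeq R64 IDs, which gave symbols and positions. Copies of the members were sought by blastn 2.17.0, and identities computed with Biopython 1.88. The counting of features past the size rule was checked on simulated FPKM. Named genes were all members, the 5 genes most like URA1, the 3 neighbours on each side of URA1 and URA6, and up to 4 genes of each list by mean change plus any changed 1.5-fold alike in all 4 mutants. The deleted genes and LEU2 were named as a check of the labels. MET17, LYS2, YIR042C, HSP30, YNK1 and FUR4 fall outside this rule and were named after their values were seen. The members and lists were chosen with earlier results of these data known. Alternatives covered pseudocount, filter, fold mark, scaling, chromosome and neighbours.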

Additional observations from a re-analysis of the deposited data

How the results depend on the processing

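No paired analysis was possible because each strain has 1 value; leaving out replicates and limma were not run for the same reason. With 1 value per strain, the spread behind the counts cannot be given, and neither the depth nor the limit of detection is known.

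At a 2-fold mark, the members higher were URA10 in ies6d and 0 in arp5d, 0 in ino80d and 0 in arp8d, the members lower were 1 in ino80d and 1 in arp8d (URA1 in each), and 0 were higher in all cross pairs. Features 2-fold higher and lower numbered 451 and 220 in ies6d, 399 and 223 in arp5d, 422 and 272 in ino80d, 316 and 152 in arp8d, and 4 and 2 in all cross pairs. The counts of features 1.5-fold higher and lower in all cross pairs were 16 and 10 with no filter, 6 and 2 with a filter at 20 FPKM, and 3 and 2 among annotated ORFs of at least 300 bp, and with a pseudocount of 0.1 FPKM 7 were lower.

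Rescaling each strain to an equal sum of FPKM moved the median log2 ratio of all kept features to -0.15 in ies6d, 0.03 in arp5d, 0.13 in ino80d and 0.24 in arp8d. The members 1.5-fold lower were then 1 in ies6d (URA5), 1 in ino80d and 1 in arp8d (URA1 in both). Features lower were 509 in ino80d and 188 in arp8d, 1180 were higher in arp8d, and 6 were higher and 13 lower in all cross pairs. Rescaling to the sum of ORFs of at least 300 bp, chosen after seeing the data, moved the median to 0.11, 0.27, 0.44 and 0.31 in the same order of strains. URA1 in ino80d was then at -0.55, with 0 members lower in ino80d and 1 in arp8d. Features higher and lower were 1548 and 288 in arp5d, 2427 and 247 in ino80d, 1498 and 176 in arp8d, and 6 and 19 in all cross pairs.

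Less the median of the neighbours, 1 member was lower in arp5d (URA8, -0.71), and FUR1 was at -0.87 in ino80d; for members other than URA1 this setting was added after seeing the data. Less the chromosome median, URA5 in ino80d was at -0.57. No log2 ratio called at 1.5-fold changed sign under any of these settings, and all URA1 ratios other than that in ino80d kept their side of 1.5-fold. Some smaller ratios did change sign, such as those of URA7 to WT on rescaling to the sum of ORFs of at least 300 bp. The cause of the other moves was not tested.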
